A study of Mus musculus with 8 samples.

Results

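The collagen chains and the enzymes that process them were followed across WT and Cav1KO fibroblasts on stiff and soft substrates. They were taken by name, as every gene of the table with a collagen chain symbol plus a list of modifying, processing and cross-linking enzymes. This gave 42 of 12528 genes, of which 24 were chains and 18 were enzymes. All 42 passed the filter on low values, so none was left out of a test.

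Collagens are extracellular proteins in which chains coil into a triple helix, and fibroblasts are a main source of them. Prolyl and lysyl hydroxylases modify the chains in the endoplasmic reticulum, a chaperone holds the helix together, proteinases trim the ends of the fibril-forming procollagens outside the cell, and lysyl oxidases cross-link the product. Fibrillar collagens bear tension, network collagens form the basement membrane, and the beaded type VI filaments surround the cell.

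The cells were mouse embryonic fibroblasts (MEFs), made from WT and Cav1KO embryos of the same litters and then immortalized. Cav1KO cells lack caveolin-1, the main structural protein of caveolae, and WT cells carry the intact gene. Both were seeded at low confluence on polyacrylamide hydrogels that were either stiff or soft, and RNA was taken 24 h later. Each genotype on each substrate made a group, which gave 4 groups of 2 libraries (called WT stiff, Cav1KO soft and so on), and the comparisons asked how the substrate and the genotype alter these transcripts. The sources used here do not say how many cell lines stood for each genotype, so genotype and cell line cannot be told apart. Nor do they say whether the 2 libraries of a group came from separate cultures, so p-values measure the spread between these libraries, which may be technical.

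Values are CPM, read counts scaled to library size and normalized by the TMM method, and 17089836 to 19944952 reads stood behind each library. Cav1 was at 949.8 to 1157 CPM in WT libraries and at no more than 0.411 CPM in Cav1KO libraries. Of 10 fibroblast markers 8 were listed, and their summed level in WT cells was 5772 to 5859 CPM on stiff and 7866 to 8018 CPM on soft, and in Cav1KO cells 3230 to 3801 CPM on stiff and 7573 to 7710 CPM on soft. This sum was lowest where the collagen chains were lowest, but not every marker followed it. Its largest part was Vim, at 3054 and 3128 CPM in WT stiff and 1976 and 1812 in Cav1KO stiff. Vim, Fn1, S100a4, Prrx1, Twist1 and Ddr2 were lower in Cav1KO stiff than in WT stiff, and Pdgfra overlapped. Pdgfrb was higher there, at 109 and 80.6 CPM against 66.2 and 62.7 in WT stiff. The part of this sum in the results below was not tested. In bulk RNA, fewer cells of a type and less RNA per cell cannot be told apart. No epithelial, endothelial or muscle marker was among the listed genes, and of 7 macrophage markers Cd68 and Cd14 were. These summed to 24.9 to 40.4 CPM in WT and 92.8 to 104 CPM in Cav1KO libraries. Nearly all of this was Cd14, at 24.4 to 39.0 CPM in WT and 88.2 to 103 CPM in Cav1KO libraries. Cd68 was at 0.552 to 1.56 CPM in WT and 1.04 to 4.55 CPM in Cav1KO libraries. The part of these 2 genes in the genotype differences was not tested.

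The libraries also differed by transcript length. All 24 chains were lower in replicate 2 than in replicate 1 of Cav1KO stiff, and 23 of 24 were in WT stiff. Over all genes with a coding transcript over 6 kb, the median log2 difference of replicate 2 from replicate 1 was -0.27 in Cav1KO stiff and -0.21 in WT stiff, against 0.14 in both groups for transcripts under 2 kb. Between the substrates, the median log2 fold change (stiff minus soft) of the 1630 genes over 6 kb was -0.35 in Cav1KO cells and 0.09 in WT cells. The 13 members over 6 kb had medians of -1.30 and -0.41. The counts over all 42 members are therefore given also after a correction of every library for length and GC content, a choice made after the data were seen.

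On the stiff substrate the collagen chains took a smaller share of the library than on the soft one, in both genotypes. The 24 chains together held 0.531% and 0.480% of all CPM on stiff and 0.650% and 0.706% on soft in WT cells. In Cav1KO cells they held 0.271% and 0.192% on stiff, and 0.858% and 0.878% on soft. The groups did not overlap, and Cav1KO cells had both the lowest and the highest share. The 18 enzymes ranged from 0.402% of a Cav1KO stiff library to 0.786% of a WT soft library, with both genotypes lower on stiff.

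**Figure D1:**
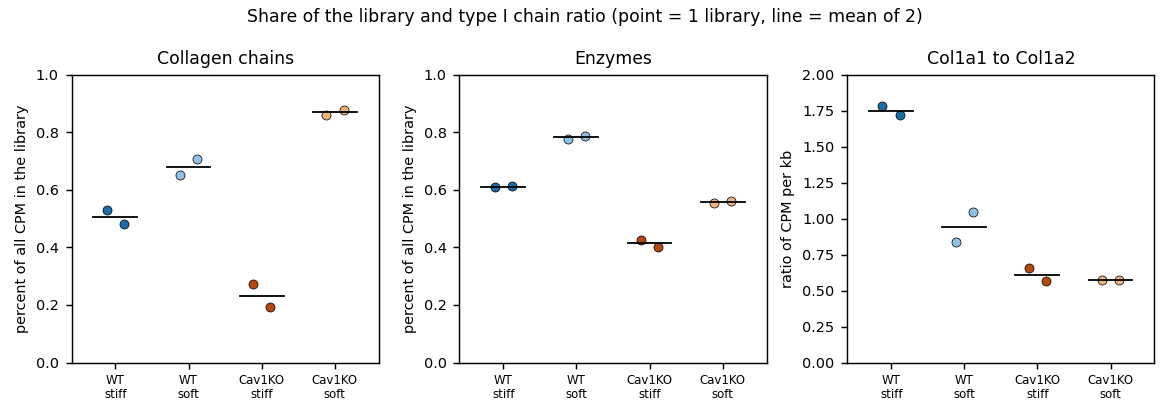
Percent of all CPM in a library held by the 24 chains (left) and the 18 enzymes (middle), and the ratio of Col1a1 to Col1a2 in CPM per kb of transcript (right), for WT and Cav1KO cells on stiff and soft. Each point is 1 library and each line the mean of 2, and the chains' share runs from 0.192% in Cav1KO stiff to 0.878% in Cav1KO soft.

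In WT cells, 26 of 42 members fell on stiff and 1 rose (limma, adjusted p under 0.05), where 26.3% of all genes tested fell and 22.1% rose. The median log2 fold change of the members was -0.42, against -0.02 over all genes, on the fitted scale of log2(CPM + 1). On log2 CPM with values under 3 reads set to 3 reads (the floored scale), it was -0.44, against -0.02. With the correction for length and GC content, 26 fell and 2 rose, and 56.0% of the calls over all genes were rises where 45.7% had been without it. In Cav1KO cells, 30 members fell and 1 rose, where 28.2% of all genes fell and 27.9% rose. The median of the members there was -0.78, against -0.02 over all genes. On the floored scale it was -0.89 over 41 members, against -0.03. Col4a6 was left out because it was at or under 3 reads in every Cav1KO library. The correction gave 25 falls and 5 rises in Cav1KO cells, where 2968 of 11656 genes fell and 3971 rose. Of those 5 rises, 3 (Col4a6, Col14a1 and Col15a1) were of chains at or below 1.47 CPM on both substrates there. The count that rose is in both genotypes a single gene, the network chain Col8a1.

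**Figure D2:**
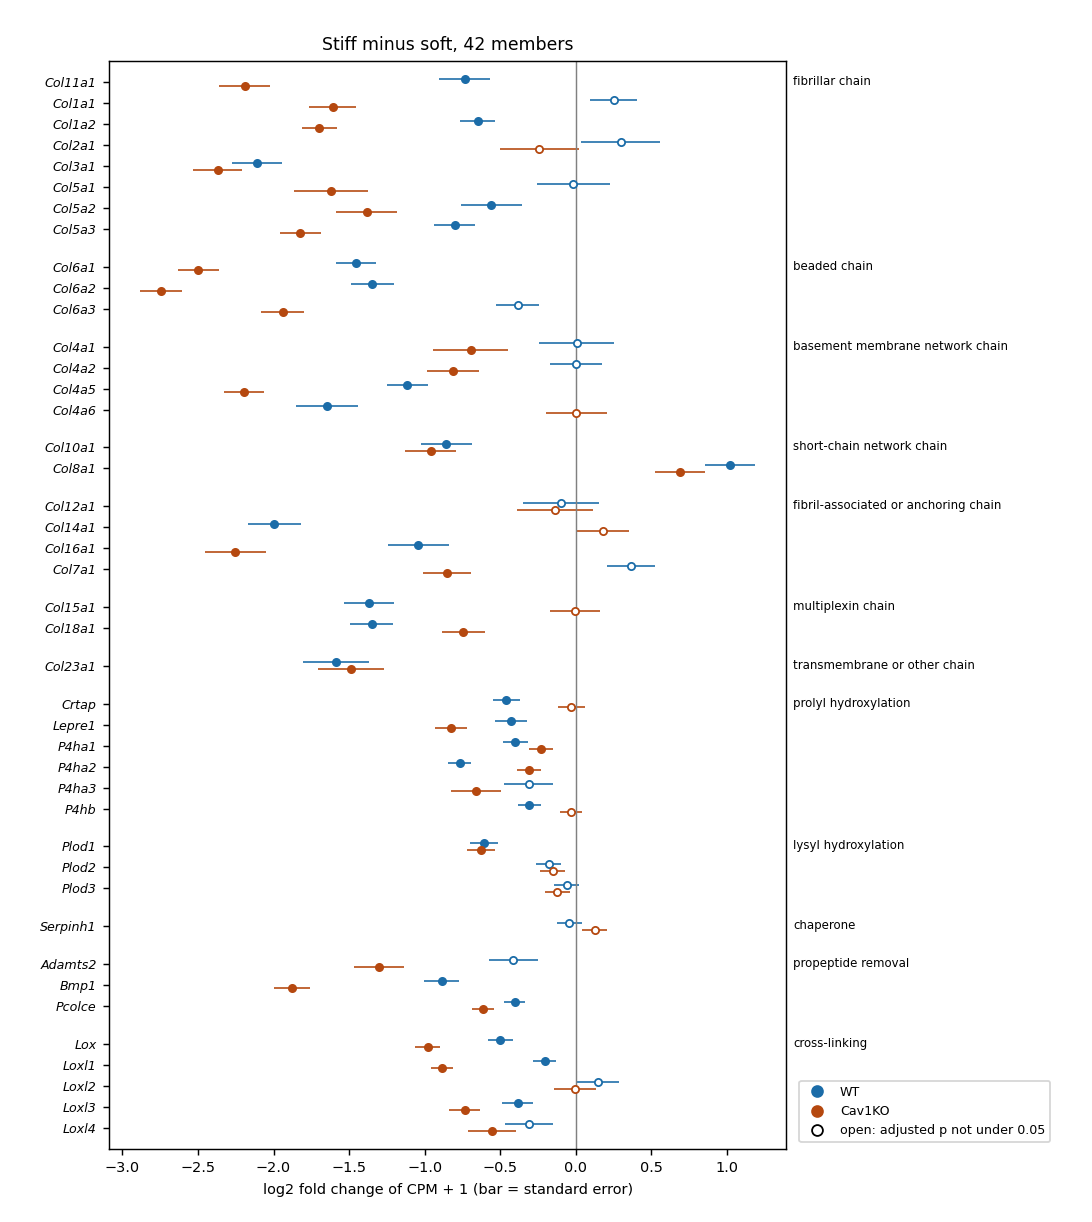
Log2 fold change of CPM + 1, stiff minus soft, of the 42 members in WT and Cav1KO cells, grouped by role, with the standard error of the fit as bars. Filled points passed an adjusted p of 0.05, and Col8a1 is the 1 member to the right of 0 with filled points in both genotypes.

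Among the fibrillar chains, 5 of 8 fell on stiff in WT cells and 7 of 8 in Cav1KO cells, with medians of -0.60 and -1.66. The shares of all genes that fell were 26.3% and 28.2%. Type I collagen is the main fibril of skin, tendon and bone, and its trimers hold more of the Col1a1 chain than of Col1a2. Col1a1 (chr11:94936224-94953042, GRCm38) was at 2612 and 2515 CPM on stiff and 2035 and 2273 on soft in WT cells, and at 859 and 591 on stiff and 2137 and 2212 on soft in Cav1KO cells. Cav1KO stiff stood apart, below all other libraries. Its stiff minus soft log2 fold change, given here and below with its standard error after ± and limma's adjusted p, was 0.25 ± 0.16, adjusted p = 0.211 in WT cells and -1.61 ± 0.16, adjusted p = 6.81e-05 in Cav1KO cells. With the length correction the WT value was 0.35 and passed, at an adjusted p of 0.00681, and without either Cav1KO stiff library it passed at up to 0.0418. Col1a2 was at 1322 and 1321 CPM on stiff and 2190.0 and 1959 on soft in WT cells, and at 1184 and 939 on stiff and 3374 and 3465 on soft in Cav1KO cells. It was lower on stiff in both genotypes, and Cav1KO soft was the highest group, at 0.72 ± 0.12, adjusted p = 0.000931 against WT soft.

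The balance of the 2 type I chains differed between the groups. Per kb of transcript, Col1a1 stood at 1.78 and 1.72 times Col1a2 in the WT stiff libraries and at 0.838 and 1.05 times in WT soft. In Cav1KO cells the ratio was 0.655 and 0.568 on stiff and 0.571 and 0.576 on soft. No WT library overlapped a Cav1KO library in this ratio, and within Cav1KO cells the substrates overlapped. This ratio was not tested.

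Type III collagen forms thin fibrils with type I in soft tissues, and it is built from the single chain Col3a1, which fell on stiff in both genotypes. Col3a1 was at 78.2 and 76.3 CPM on stiff and 346 and 327 on soft in WT cells, and at 77.9 and 50.4 on stiff and 321 and 336 on soft in Cav1KO cells. The genotypes overlapped on both substrates, although Cav1KO stiff replicate 2 lay below both WT stiff libraries, and neither genotype contrast passed (-0.30 ± 0.16, adjusted p = 0.163 on stiff and -0.03 ± 0.16, adjusted p = 0.873 on soft). The change on stiff was -2.11 ± 0.16, adjusted p = 5.85e-05 in WT cells and -2.37 ± 0.16, adjusted p = 1.94e-05 in Cav1KO cells, and the difference between them was 0.26 ± 0.23, adjusted p = 0.443. Leaving out Cav1KO stiff replicate 1, that difference was 0.57 with an adjusted p of 0.0104, and the genotype contrast on stiff was -0.61 with an adjusted p of 0.000512. Without Cav1KO stiff replicate 2 they were -0.05 and 0.01.

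Type V chains set the diameter of type I fibrils. Col5a1 was at 257 and 197 CPM on stiff and 194 and 266 on soft in WT cells, and at 74.6 and 43.6 on stiff and 173 and 182 on soft in Cav1KO cells. WT libraries overlapped between the substrates, while both Cav1KO stiff libraries lay below all others. The change was -0.02 ± 0.24, adjusted p = 0.967 in WT cells and -1.62 ± 0.24, adjusted p = 0.000636 in Cav1KO cells. Col5a2, its partner in the trimer, lies 24.6 kb from Col3a1 and was at 180.3 and 145 CPM on stiff and 222 and 257 on soft in WT cells, and at 105 and 64.6 on stiff and 215 and 219 on soft in Cav1KO cells. It fell by 0.56 on the log2 scale in WT cells, a call at an adjusted p of 0.0485 that was lost when any 1 of the 4 WT libraries or either Cav1KO soft library was left out, and by 1.38 in Cav1KO cells. Col5a3 was at 22.7 and 20.5 CPM on stiff and 34.6 and 42.7 on soft in WT cells, and at 4.06 and 3.40 on stiff and 15.9 and 15.5 on soft in Cav1KO cells. It was lower in Cav1KO than in WT cells on both substrates, at -2.26 ± 0.14, adjusted p = 3.44e-06 on stiff and -1.24 ± 0.14, adjusted p = 0.000109 on soft.

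The minor fibrillar chains had low levels. Col11a1, a cartilage chain that also mixes with type V, was at 3.77 and 3.14 CPM on stiff and 6.83 and 5.96 on soft in WT cells, and at 2.18 and 1.42 on stiff and 11.3 and 12.1 on soft in Cav1KO cells. It was lowest in Cav1KO stiff and highest in Cav1KO soft. Stiff minus soft was -0.73 ± 0.17, adjusted p = 0.00757 in WT cells and -2.19 ± 0.17, adjusted p = 2.83e-05 in Cav1KO cells. Col2a1, the main cartilage chain, was at 38.5 and 34.2 CPM on stiff and 21.5 and 39.9 on soft in WT cells, and at 0.118 and 0 on stiff and 0.105 and 0.411 on soft in Cav1KO cells. It was close to 0 in all 4 Cav1KO libraries, which held 2, 0, 2 and 8 reads. On stiff, WT cells had 643 times its level in Cav1KO cells, with an exact (Clopper-Pearson) 95% interval of 178 to 5312 that covers counting error only. Of 6 chondrocyte markers Sox9 was listed, at 119 to 165 CPM in WT and 54.0 to 111 CPM in Cav1KO libraries, and its part here was not tested.

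**Figure D3:**
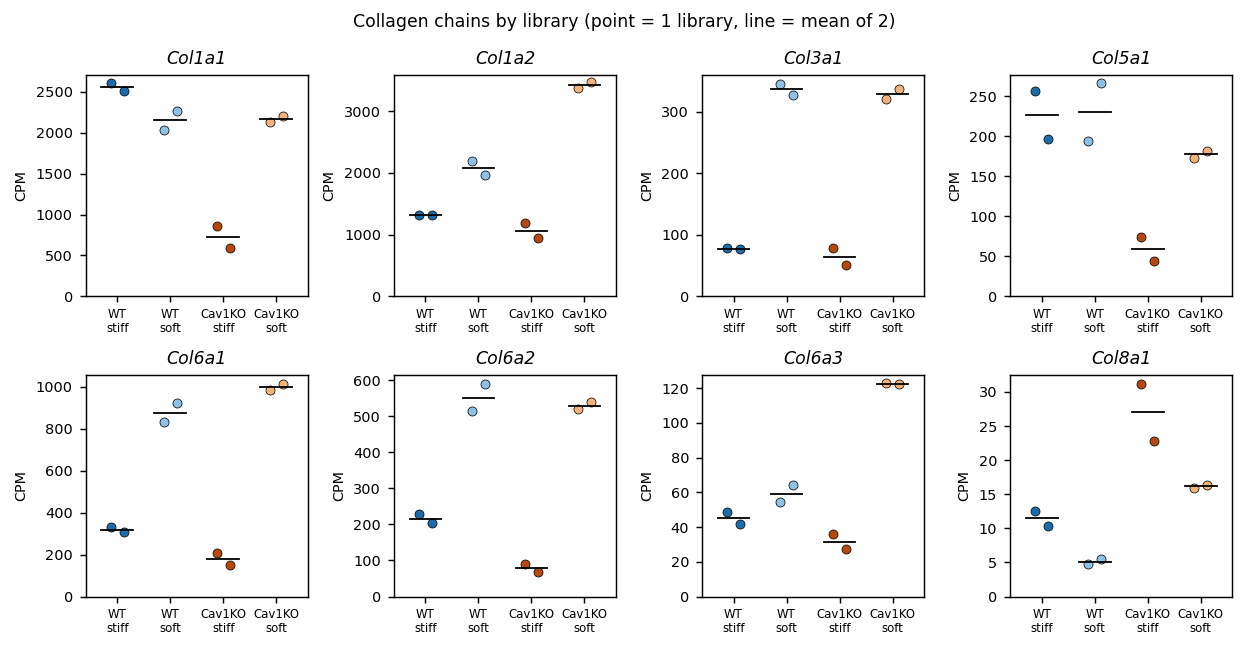
CPM of 8 collagen chains in each library of the 4 groups, on linear axes from 0, with each point 1 library and each line the mean of 2. Col6a1 sits between 151 and 206 CPM in Cav1KO stiff and between 831 and 1014 CPM in the soft libraries, while Col8a1 is higher on stiff in both genotypes.

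Of the 3 beaded chains, 2 fell on stiff in WT cells and 3 in Cav1KO cells, against 26.3% and 28.2% of all genes. The fall was larger in Cav1KO cells for all 3 type VI chains. Type VI collagen joins 3 different chains into microfilaments near the cell surface. Col6a1 and Col6a2 lie on the same strand of chromosome 10, 85.2 kb apart, and Col6a3 is on chromosome 1. Col6a1 (chr10:76708792-76726168) was at 330.0 and 308 CPM on stiff and 831 and 921 on soft in WT cells, and at 206 and 151 on stiff and 985 and 1014 on soft in Cav1KO cells. Every stiff library lay below every soft one, and Cav1KO stiff below WT stiff. Its change on stiff was -1.45 ± 0.13, adjusted p = 9.90e-05 in WT cells and -2.50 ± 0.13, adjusted p = 1.01e-05 in Cav1KO cells. Col6a2 (chr10:76595762-76623630) was at 229 and 203 CPM on stiff and 513 and 588 on soft in WT cells, and at 91.2 and 66.8 on stiff and 519 and 539 on soft in Cav1KO cells. It showed the same order of groups for stiff, at -1.34 ± 0.14, adjusted p = 0.000164 in WT cells and -2.74 ± 0.14, adjusted p = 9.12e-06 in Cav1KO cells, and its soft groups overlapped.

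Col6a3, the longest of the 3 chains (chr1:90765923-90843971), differed in WT cells. It was at 48.8 and 41.6 CPM on stiff and 54.4 and 64.1 on soft in WT cells, and at 35.8 and 27.2 on stiff and 123 and 122 on soft in Cav1KO cells. The WT stiff libraries lay below the WT soft ones, but the change of -0.38 ± 0.14, adjusted p = 0.0501 did not pass. It passed in 8 of the alternative settings, among them the length correction at -0.40. In Cav1KO cells the fall was -1.94 ± 0.14, adjusted p = 2.22e-05, and Cav1KO soft was above WT soft at 1.04 ± 0.14, adjusted p = 0.000341. The difference between the genotypes in the stiffness effect (WT minus Cav1KO) passed for all 3 chains, at 1.04 ± 0.19, adjusted p = 0.0206 for Col6a1, 1.40 ± 0.20, adjusted p = 0.00855 for Col6a2 and 1.56 ± 0.20, adjusted p = 0.00609 for Col6a3. With the length correction these differences were 0.87, 1.15 and 0.97 and passed too. For Col6a1 the call was lost when WT stiff replicate 1, WT soft replicate 1 or either Cav1KO soft library was left out (adjusted p up to 0.0963), and for Col6a2 when either Cav1KO soft library was (up to 0.0563).

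The bases upstream of these chains are shown because the 3 chains build the same filament and all fell on stiff in Cav1KO cells, with Col3a1 as a further gene that fell and Col8a1 as the gene that rose. They are RefSeq sequences on build GRCm38.p6, read 5′ to 3′ on each gene's strand and ending at the base before the outermost RefSeq start, except Col6a1, where the stretch ends 124 bases earlier because an exon of the other annotation (GENCODE) begins there. The intervals are chr10:76726169-76726294 (minus strand), chr10:76623631-76623880 (minus), chr1:90843972-90844221 (minus), chr1:45311288-45311537 (plus) and chr16:57754738-57754987 (minus). Capitals mark, on either strand, the promoter motif CCAAT, the core promoter motif TATAAA, the motif GGAATG of TEAD factors, the motif TGACTCA of AP-1 and the motif GGGCGG of Sp1, none of which shares letters with another kind of motif in these stretches.
Col6a1: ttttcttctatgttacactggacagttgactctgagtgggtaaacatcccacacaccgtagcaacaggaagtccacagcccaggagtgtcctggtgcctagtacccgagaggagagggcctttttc
Col6a2: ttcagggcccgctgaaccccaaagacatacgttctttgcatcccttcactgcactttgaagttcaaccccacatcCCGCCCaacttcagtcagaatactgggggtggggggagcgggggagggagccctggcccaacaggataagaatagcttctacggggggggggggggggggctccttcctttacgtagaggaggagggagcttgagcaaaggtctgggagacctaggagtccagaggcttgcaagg
Col6a3: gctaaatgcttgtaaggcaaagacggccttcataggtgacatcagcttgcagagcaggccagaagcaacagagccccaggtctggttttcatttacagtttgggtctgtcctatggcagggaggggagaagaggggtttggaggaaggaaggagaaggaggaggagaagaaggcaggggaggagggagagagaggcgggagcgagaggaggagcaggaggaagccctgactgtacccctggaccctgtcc
Col3a1: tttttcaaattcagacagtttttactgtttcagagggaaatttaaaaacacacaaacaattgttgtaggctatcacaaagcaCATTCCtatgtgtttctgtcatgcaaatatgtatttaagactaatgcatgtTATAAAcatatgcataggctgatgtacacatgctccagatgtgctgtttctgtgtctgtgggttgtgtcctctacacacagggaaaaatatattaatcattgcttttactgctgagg
Col8a1: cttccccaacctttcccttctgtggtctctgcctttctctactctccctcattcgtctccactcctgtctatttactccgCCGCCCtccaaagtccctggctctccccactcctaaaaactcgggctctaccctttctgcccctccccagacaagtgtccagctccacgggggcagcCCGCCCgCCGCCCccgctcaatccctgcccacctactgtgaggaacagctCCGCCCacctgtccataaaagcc
The Col3a1 stretch holds 1 TATAAA and 1 GGAATG, the Col6a2 stretch holds 1 GGGCGG and the Col8a1 stretch 4, and the printed Col6a1 and Col6a3 stretches hold none of the 5 motifs. In bases not printed here, upstream of an annotated start, Col6a1 has TGACTCA. Col6a2 has GGAATG upstream of a start other than the printed one. Upstream stretches of 250 bases were in the table for 30 of the 42 members, and a gene was counted where any of its annotated starts had the motif upstream. GGGCGG was in those of 22 members (73.3%), against 65.7% of the 9071 genes of the expression table with such a stretch. GGAATG was in those of 3 members (10%), against 12.6%, and TGACTCA in 1 (3.33%), which was Col6a1, against 4.08%. CCAAT was in 11 (36.7%), against 41.7%, and TATAAA in 4 (13.3%), against 7.63%.

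Of the 4 basement membrane chains, all were lower in Cav1KO than in WT cells on both substrates. Lower calls covered 26.6% of all genes on stiff and 29.9% on soft. At 1.08 CPM or below in every Cav1KO library were 3 of the 4 chains. Type IV collagen is the network of basement membranes, and its genes lie in head-to-head pairs. Col4a1 and Col4a2 (chr8:11198423-11312826 and chr8:11312805-11449287) overlap by 22 bases at their starts, and the gap between Col4a6 and Col4a5 on chromosome X is 1308 bases. Col4a1 was at 27.7 and 18.0 CPM on stiff and 18.1 and 27.4 on soft in WT cells, and at 0.353 and 0.110 on stiff and 0.889 and 1.08 on soft in Cav1KO cells. Col4a2 was at 32.3 and 24.2 CPM on stiff and 25.4 and 30.7 on soft in WT cells, and at 0.118 and 0.0548 on stiff and 0.889 and 0.926 on soft in Cav1KO cells. In WT cells the substrates overlapped for both (0.01 ± 0.25, adjusted p = 0.990 and 0.00 ± 0.17, adjusted p = 0.997), and every Cav1KO library lay below every WT library. Cav1KO minus WT was -4.25 ± 0.25, adjusted p = 2.73e-06 on stiff for Col4a1 and -3.55 ± 0.25, adjusted p = 7.46e-06 on soft. For Col4a2 it was -3.92 ± 0.17, adjusted p = 4.34e-07 on soft. On stiff the Cav1KO libraries held 2 reads and 1 read of Col4a2, and WT cells had 335 times that level (interval 114 to 1627). Within Cav1KO cells, the lower level on stiff rests on these few reads and was not called for either chain after the length correction.

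Col4a5 and Col4a6 form a network with each other that is found in smooth muscle and some epithelial basement membranes. Col4a5 was at 40.0 and 35.3 CPM on stiff and 83.6 and 81.4 on soft in WT cells, and at 5.24 and 3.78 on stiff and 24.0 and 24.0 on soft in Cav1KO cells. It fell on stiff in both genotypes (-1.11 ± 0.13, adjusted p = 0.000307 in WT and -2.19 ± 0.13, adjusted p = 1.34e-05 in Cav1KO) and was lower in Cav1KO cells on both substrates. Col4a6 was at 16.6 and 10.6 CPM on stiff and 40.0 and 47.8 on soft in WT cells, and at 0.0588 and 0 on stiff and 0 and 0.0514 on soft in Cav1KO cells. WT cells had less of it on stiff (-1.65 ± 0.20, adjusted p = 0.000348), and each Cav1KO group held 1 read in all. WT soft stood at 1703 times Cav1KO soft (interval 305 to 67292) and WT stiff at 486 times Cav1KO stiff (86.9 to 19249). A change with stiffness in Cav1KO cells could not be measured for Col4a6 at this depth.

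**Figure D4:**
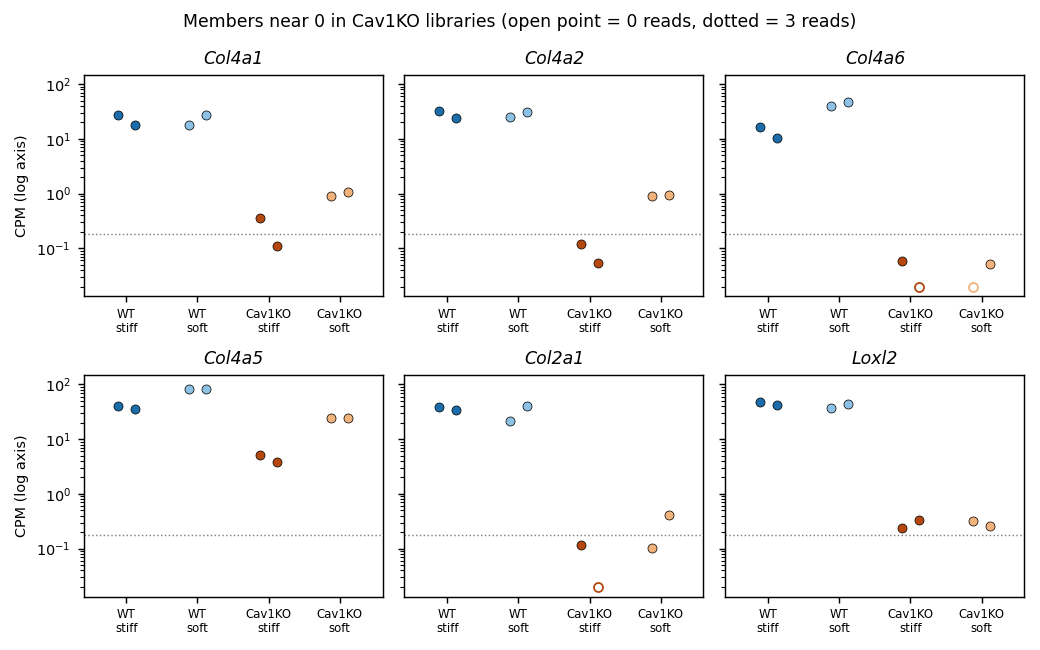
CPM on a log axis of the 4 type IV chains, Col2a1 and Loxl2 in each library. Open points had 0 reads and are drawn at the bottom of the axis, and the dotted line is the highest level of 3 reads in any library (0.181 CPM). The Cav1KO libraries lie at 1.08 CPM or below for all but Col4a5.

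Both short-chain network collagens were higher in Cav1KO cells on both substrates. Col8a1, a chain of subendothelial and vessel wall matrix, was at 12.6 and 10.4 CPM on stiff and 4.71 and 5.53 on soft in WT cells, and at 31.2 and 22.9 on stiff and 15.9 and 16.4 on soft in Cav1KO cells. It was higher on stiff in both genotypes, by 1.02 ± 0.17, adjusted p = 0.00136 in WT cells and 0.69 ± 0.17, adjusted p = 0.00742 in Cav1KO cells, with no overlap. Cav1KO minus WT was 1.16 ± 0.17, adjusted p = 0.000550 on stiff and 1.49 ± 0.17, adjusted p = 0.000119 on soft. Col10a1, a chain of hypertrophic cartilage, was at 0.151 and 0.114 CPM on stiff and 1.03 and 1.07 on soft in WT cells, and at 1.47 and 0.877 on stiff and 3.35 and 3.03 on soft in Cav1KO cells. WT stiff held 3 and 2 reads, and WT soft stood at 7.88 times that level (interval 3.09 to 25.7).

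The fibril-associated and anchoring chains did not move as a group. Col16a1, which binds fibrils in dermis and cartilage, was at 23.2 and 17.9 CPM on stiff and 38.3 and 48.1 on soft in WT cells, and at 15.9 and 10.4 on stiff and 64.7 and 65.5 on soft in Cav1KO cells. Stiff minus soft was -1.04 ± 0.20, adjusted p = 0.00307 in WT cells and -2.25 ± 0.20, adjusted p = 4.69e-05 in Cav1KO cells. Col14a1, which binds the surface of mature fibrils, was at 1.21 and 0.969 CPM on stiff and 8.52 and 6.23 on soft in WT cells, and at 1.47 and 1.15 on stiff and 0.993 and 1.08 on soft in Cav1KO cells. WT soft stood apart from the other 3 groups, all of them at or below 1.47 CPM, and the change on stiff in WT cells was -1.99 ± 0.18, adjusted p = 8.59e-05. Col7a1, the chain of anchoring fibrils under epithelia, was at 8.49 and 6.56 CPM on stiff and 5.98 and 5.16 on soft in WT cells, and at 2.65 and 2.41 on stiff and 5.07 and 5.66 on soft in Cav1KO cells. Both Cav1KO stiff libraries lay below all others. It fell on stiff in Cav1KO cells (-0.85 ± 0.16, adjusted p = 0.00203), a call that the length correction ended, at -0.15. In WT cells its value was 0.37 (adjusted p = 0.0854). Col12a1, which links fibrils in tendon and ligament, was at 27.6 and 20.5 CPM on stiff and 21.6 and 30.1 on soft in WT cells, and at 24.7 and 14.4 on stiff and 21.9 and 20.0 on soft in Cav1KO cells. The groups overlapped, and its 5 contrasts did not pass.

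Of the multiplexins, whose ends release fragments that inhibit vessel growth, Col18a1 was at 4.22 and 3.59 CPM on stiff and 11.2 and 11.7 on soft in WT cells, and at 9.30 and 7.34 on stiff and 14.5 and 14.5 on soft in Cav1KO cells. It was lower on stiff in both genotypes (-1.35 ± 0.14, adjusted p = 0.000180 in WT and -0.74 ± 0.14, adjusted p = 0.00239 in Cav1KO), and the length correction moved the Cav1KO value to -0.18 and ended that call. On stiff it was higher in Cav1KO cells (0.92 ± 0.14, adjusted p = 0.000827). Col15a1 was at 0.1004 and 0.114 CPM on stiff and 1.99 and 1.72 on soft in WT cells, and at 0.235 and 0.110 on stiff and 0.0523 and 0.309 on soft in Cav1KO cells. WT soft alone was above 1 CPM, and the other libraries held at most 6 reads each. WT soft stood at 17.3 times WT stiff (interval 6.45 to 65.4). The transmembrane chain Col23a1 was at 1.56 and 1.08 CPM on stiff and 6.10 and 5.75 on soft in WT cells, and at 2.71 and 1.37 on stiff and 6.80 and 7.87 on soft in Cav1KO cells. Both stiff groups lay below both soft groups, at -1.58 in WT and -1.49 in Cav1KO cells.

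Of the enzymes, 11 of 18 fell on stiff in WT cells and the other 7 did not pass, with a median of -0.39, where the chains had a median of -0.77. In Cav1KO cells 12 fell and 6 did not pass, with a median of -0.58 against -1.44 for the chains. Falls were called for 26.3% and 28.2% of all genes in WT and Cav1KO cells. Between the genotypes, 14 of the 18 were lower in Cav1KO cells on stiff, where 26.6% of all genes were. On soft 11 were lower and 2 higher, where 29.9% and 24.1% of all genes were.

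Prolyl 4-hydroxylases stabilize the triple helix and need P4hb, the protein disulfide isomerase that is their shared subunit. P4ha1, a catalytic subunit, was at 198 and 199 CPM on stiff and 268 and 256 on soft in WT cells, and at 99.98 and 86.8 on stiff and 107 and 111 on soft in Cav1KO cells. P4ha2, another catalytic subunit, was at 136 and 146 CPM on stiff and 252 and 229.5 on soft in WT cells, and at 75.0 and 70.8 on stiff and 88.5 and 92.8 on soft in Cav1KO cells. Every Cav1KO library lay below every WT library for both. Cav1KO minus WT was, for P4ha1, -1.08 ± 0.08, adjusted p = 1.14e-05 on stiff and -1.25 ± 0.08, adjusted p = 4.60e-06 on soft, and for P4ha2 -0.94 ± 0.08, adjusted p = 2.20e-05 on stiff and -1.40 ± 0.08, adjusted p = 2.02e-06 on soft. With stiffness both fell in both genotypes, P4ha1 at -0.40 in WT and -0.23 in Cav1KO, P4ha2 at -0.77 and -0.31. The Cav1KO call of P4ha1 (adjusted p = 0.0398) was lost in 11 of the alternative settings. P4hb was at 1238 and 1287 CPM on stiff and 1606 and 1516 on soft in WT cells, and at 1057 and 1089 on stiff and 1088 and 1104 on soft in Cav1KO cells. It was lower on stiff in WT cells (-0.31 ± 0.07, adjusted p = 0.00930), and its Cav1KO libraries lay close together. The third catalytic subunit, P4ha3, lay between 4.65 and 13.9 CPM and fell on stiff in Cav1KO cells (-0.66 ± 0.16, adjusted p = 0.00847).

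Lepre1 and Crtap act together in prolyl 3-hydroxylation. Lepre1 was at 37.6 and 30.6 CPM on stiff and 45.9 and 46.1 on soft in WT cells, and at 25.3 and 24.4 on stiff and 45.0 and 44.6 on soft in Cav1KO cells, and both genotypes were lower on stiff (-0.43 ± 0.11, adjusted p = 0.00990 and -0.83 ± 0.11, adjusted p = 0.000276). Crtap was at 169.5 and 185 CPM on stiff and 257 and 231 on soft in WT cells, and at 157 and 171 on stiff and 159 and 175 on soft in Cav1KO cells. WT soft was its highest group, and it fell on stiff in WT cells (-0.46 ± 0.09, adjusted p = 0.00314) with a Cav1KO value of -0.03 (adjusted p = 0.807).

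Of the 3 lysyl hydroxylases, Plod2 and Plod1 were called lower in Cav1KO cells on both substrates, Plod1 by a small margin. Plod2 acts on the ends of the chains, where cross-links form. It was at 86.1 and 81.3 CPM on stiff and 97.8 and 91.9 on soft in WT cells, and at 18.8 and 18.0 on stiff and 20.2 and 20.8 on soft in Cav1KO cells. All 4 Cav1KO libraries lay far below all WT ones, at -2.13 ± 0.08, adjusted p = 2.54e-07 on stiff and -2.16 ± 0.08, adjusted p = 2.00e-07 on soft, or 4.37 and 4.46 times lower on this scale. With stiffness it changed by -0.18 in WT and -0.15 in Cav1KO cells, neither of which passed. Plod1, which acts on the helix, was at 89.2 and 76.8 CPM on stiff and 123 and 131 on soft in WT cells, and at 71.4 and 64.9 on stiff and 107 and 104 on soft in Cav1KO cells, and it was lower on stiff in both genotypes (-0.61 ± 0.09, adjusted p = 0.000896 in WT and -0.63 ± 0.09, adjusted p = 0.000564 in Cav1KO). Its differences between the genotypes were -0.28 ± 0.09, adjusted p = 0.0323 on stiff and -0.26 ± 0.09, adjusted p = 0.0406 on soft. The call on stiff was lost in 9 of the 20 alternative settings, the length correction among them, and the call on soft in 7. Plod3, which also adds sugars to hydroxylysine, was at 193 and 186 CPM on stiff and 199 and 196 on soft in WT cells, and at 177 and 153 on stiff and 172 and 186 on soft in Cav1KO cells, and its 5 contrasts did not pass. Of its transcript windows of 60 nt, 9.09% also occur in another gene, and 5.33% of those of Plod2 do.

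The collagen chaperone Serpinh1 (Hsp47) was at 1163 and 1252 CPM on stiff and 1302 and 1188 on soft in WT cells, and at 1248 and 1280.3 on stiff and 1133 and 1186 on soft in Cav1KO cells. All libraries lay between 1133 and 1302 CPM, the groups overlapped, and its 5 contrasts did not pass. With the length correction the Cav1KO value moved from 0.13 to 0.20 and passed, at an adjusted p of 0.0157.

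Of the 3 proteins of propeptide removal, 2 fell on stiff in WT cells and 3 in Cav1KO cells. Among all genes tested, 26.3% and 28.2% did. Bmp1, the proteinase that trims the C-terminal end of procollagens, was at 40.9 and 39.3 CPM on stiff and 76.2 and 73.8 on soft in WT cells, and at 18.5 and 14.1 on stiff and 62.2 and 62.1 on soft in Cav1KO cells. It fell by 0.89 ± 0.12 on the log2 scale in WT cells and by 1.88 ± 0.12 in Cav1KO cells, with a genotype difference on stiff of -1.26 ± 0.12, adjusted p = 4.27e-05. Pcolce, which enhances that step, was at 532 and 572 CPM on stiff and 733 and 728 on soft in WT cells, and at 642 and 604 on stiff and 947 and 958 on soft in Cav1KO cells. It was lower on stiff in both genotypes (-0.40 ± 0.07, adjusted p = 0.00212 and -0.61 ± 0.07, adjusted p = 0.000181), and on soft it was higher in Cav1KO cells (0.38 ± 0.07, adjusted p = 0.00222). Adamts2, which trims the N-terminal end, was at 13.0 and 11.2 CPM on stiff and 17.8 and 15.1 on soft in WT cells, and at 8.65 and 6.25 on stiff and 18.7 and 20.5 on soft in Cav1KO cells. It was lowest in Cav1KO stiff. It fell there against soft (-1.30 ± 0.16, adjusted p = 0.000265), with -0.41 in WT cells (adjusted p = 0.0676).

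The lysyl oxidases oxidize lysines so that chains cross-link. They were lower in Cav1KO cells in 5 of 5 cases on stiff and in 4 of 5 on soft, where Loxl1 was higher. The shares of all genes that were lower were 26.6% on stiff and 29.9% on soft. Lox was at 1847 and 1990.3 CPM on stiff and 2671 and 2744 on soft in WT cells, and at 479 and 430.3 on stiff and 908 and 884 on soft in Cav1KO cells. From high to low its groups ran from WT cells on soft and then on stiff to Cav1KO cells on soft and then on stiff, with no overlap. Cav1KO minus WT was -2.08 ± 0.08, adjusted p = 3.00e-07 on stiff and -1.59 ± 0.08, adjusted p = 1.31e-06 on soft, and stiff minus soft was -0.50 ± 0.08, adjusted p = 0.00154 in WT and -0.98 ± 0.08, adjusted p = 3.94e-05 in Cav1KO cells. Loxl1, which acts also on elastin, was at 220.0 and 223 CPM on stiff and 251 and 259.9 on soft in WT cells, and at 168 and 149.5 on stiff and 291 and 296 on soft in Cav1KO cells. It fell on stiff in Cav1KO cells (-0.88 ± 0.07, adjusted p = 3.63e-05). Its smaller change in WT cells (-0.21 ± 0.07, adjusted p = 0.0483) was lost in 13 of the alternative settings and was -0.02 with the length correction, and its rise on soft in Cav1KO cells (0.20 ± 0.07, adjusted p = 0.0478) was lost in 9.

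Loxl2 (chr14:69609068-69695834), an oxidase that also acts on type IV collagen, was at 48.3 and 42.5 CPM on stiff and 37.7 and 44.2 on soft in WT cells, and at 0.235 and 0.329 on stiff and 0.314 and 0.257 on soft in Cav1KO cells. The Cav1KO libraries held 4 to 6 reads each, against 624 to 962 in WT, at -5.18 ± 0.14, adjusted p = 3.50e-08 on stiff and -5.02 ± 0.14, adjusted p = 4.20e-08 on soft. No stiffness effect passed in WT cells (0.15 ± 0.14, adjusted p = 0.420). Of its 60 nt transcript windows 44.4% also occur in another gene, and which gene was not recorded. Gm27177, whose exons overlap those of Loxl2, was at 0.846 to 7.13 CPM in WT and 0.157 to 8.60 CPM in Cav1KO libraries. The split of reads between Loxl2 and other genes is therefore uncertain. The fitted values depend on the pseudocount at so few reads.

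Loxl3, a further oxidase of collagen and elastin, was at 33.9 and 33.3 CPM on stiff and 45.0 and 43.3 on soft in WT cells, and at 15.2 and 12.9 on stiff and 23.8 and 24.1 on soft in Cav1KO cells. Loxl4 was at 32.7 and 25.5 CPM on stiff and 34.3 and 38.0 on soft in WT cells, and at 15.3 and 12.9 on stiff and 18.7 and 23.7 on soft in Cav1KO cells. In both, every Cav1KO library lay below every WT library. Cav1KO minus WT was -1.21 ± 0.10, adjusted p = 2.45e-05 on stiff and -0.85 ± 0.10, adjusted p = 0.000174 on soft for Loxl3, and -0.99 ± 0.16, adjusted p = 0.00101 and -0.75 ± 0.16, adjusted p = 0.00422 for Loxl4. Loxl3 fell on stiff in both genotypes (-0.38 in WT and -0.73 in Cav1KO), and Loxl4 in Cav1KO cells (-0.55), where the length correction ended the call at -0.29. Of the Loxl3 windows of 60 nt, 7.87% also occur in another gene, and exons of Htra2 overlap those of Loxl3.

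Between the genotypes, 30 of 42 members were lower and 3 higher in Cav1KO cells on stiff, where 26.6% of all genes were lower and 25.0% higher. The median over members was -0.75 (-0.90 on the floored scale), against -0.03 over all genes on either scale. For the 13 members over 6 kb it was -1.26, against -0.24 over all such genes. With the length correction 27 were lower and 5 higher, where 3257 and 3412 of 11656 genes were. Without WT stiff replicate 1 or Cav1KO stiff replicate 2, the median over members was -0.67 and -0.55, against -0.03 and -0.01 over all genes. The count of members that was lower was smaller in both fits, as was that over all genes. On soft, 19 were lower and 8 higher, where 29.9% of all genes were lower and 24.1% higher, with a median of -0.26 against -0.03. On the floored scale these medians were -0.27 and -0.04. With the length correction 22 were lower and 8 higher on soft, where 3535 and 3466 of 11656 genes were. The 3 chains of the higher group on stiff were Col8a1, Col10a1 and Col18a1. On soft, 8 of 24 chains were lower and 6 higher, while 11 of 18 enzymes were lower and 2 higher (Pcolce and Loxl1). These contrasts share the same libraries with the stiffness contrasts above and are not independent of them.

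**Figure D5:**
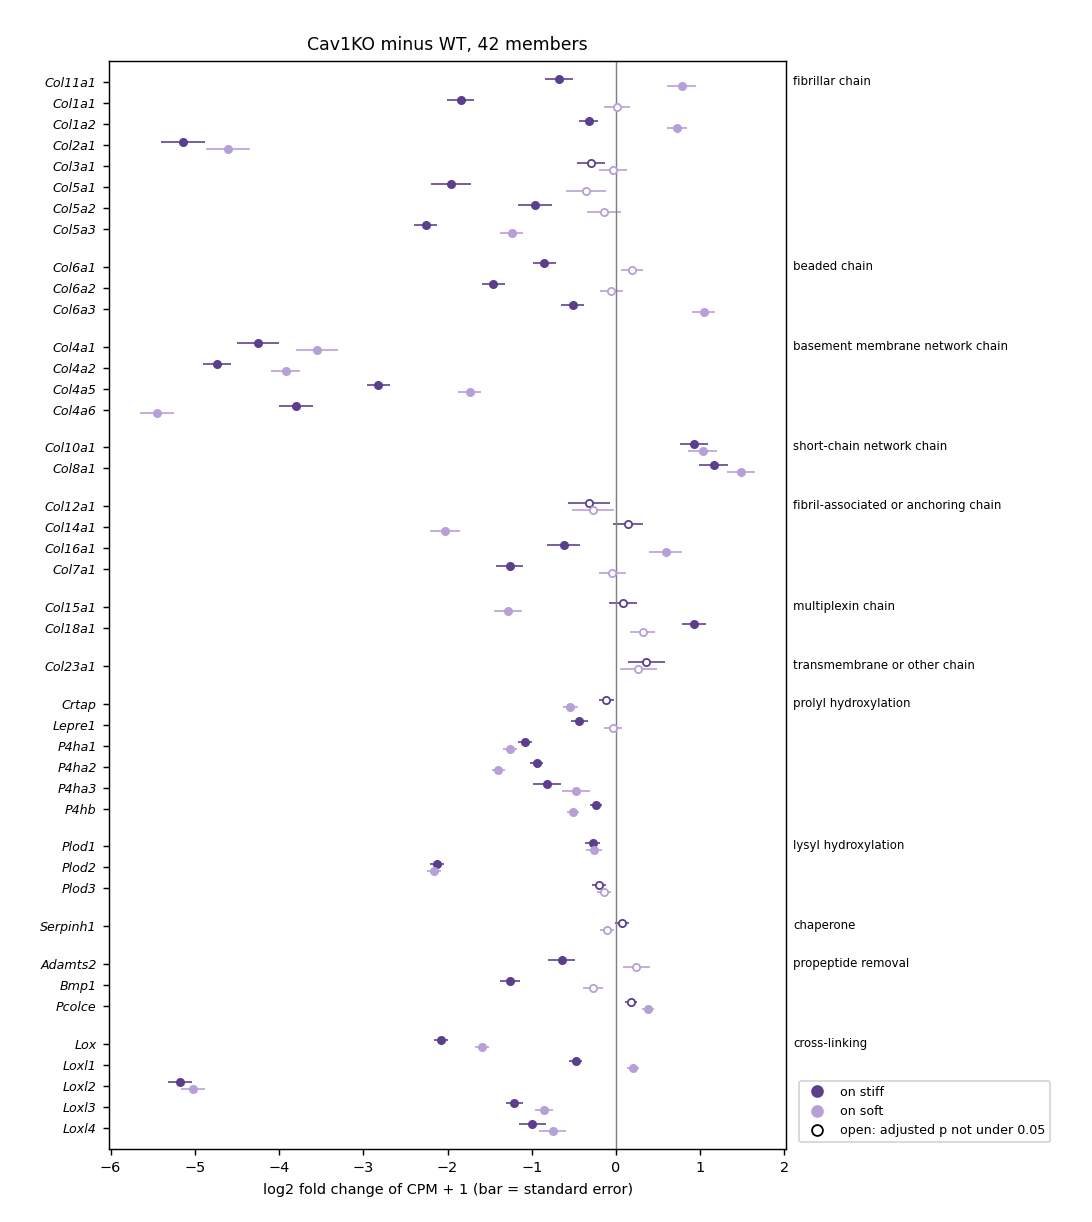
Log2 fold change of CPM + 1, Cav1KO minus WT, of the 42 members on stiff and on soft, grouped by role, with the standard error of the fit as bars. Filled points passed an adjusted p of 0.05, and Col4a1, Col4a2, Col4a6, Col2a1 and Loxl2 lie below -3.5 on both substrates.

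The stiffness effect itself differed between the genotypes for 19 of 42 members. For 15 members the WT effect minus the Cav1KO effect was above 0, where 4.47% of all genes were called so, and for 4 it was below 0, where 6.0% were. The median over members was 0.35, against -0.07 over all genes. On the floored scale, with Col4a6 left out, it was 0.42 over 41 members, against -0.08. The 15 were Col1a1, Col1a2, Col5a1, Col5a3, Col11a1, Col6a1, Col6a2, Col6a3, Col4a5, Col7a1, Col16a1, Bmp1, Adamts2, Lox and Loxl1, all of them lower on stiff in Cav1KO cells. The largest of these differences was that of Col1a1, at 1.86 ± 0.22, adjusted p = 0.00457. Over all genes, the median difference was 0.40 for transcripts over 6 kb and -0.25 for those under 2 kb, and 0.89 for the 13 members over 6 kb. With the length correction 14 members were above 0 and 5 below, where 737 and 901 of 11656 genes were. Col1a1 was then at 1.39 and passed. The count above 0 rested on single libraries, as did the count over all genes. With 1 library left out in turn, the median over members ran from 0.27 (without WT soft replicate 1) to 0.51 (without Cav1KO stiff replicate 1). Over all genes it ran from -0.08 to -0.05 in the same fits. In those fits 3 residual degrees of freedom were left. Of the 4 below 0, Col4a6 and Col15a1 had too few reads in Cav1KO cells for an effect to be seen there, Col14a1 was near 1 CPM in them, and P4ha2 was at -0.46 ± 0.11, adjusted p = 0.0411.

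Other genes of collagen biosynthesis and turnover, from a list of 72 of which 51 were tested, were counted beside the members. In WT cells 29 of the 51 were lower and 3 higher on stiff, where 26.3% of all genes were lower and 22.1% higher, with a median of -0.35 against -0.02. In Cav1KO cells 31 were lower and 5 higher, where 28.2% and 27.9% of all genes were, with a median of -0.68 against -0.02. Between the genotypes, 24 were lower and 9 higher in Cav1KO cells on stiff, where 26.6% and 25.0% of all genes were. On soft 14 were lower and 17 higher, where 29.9% and 24.1% of all genes were, so the share that was lower was near that over all genes. Of the 8 listed partners of fibril assembly, 7 fell and 1 rose in WT cells and 8 fell in Cav1KO cells. The gene that rose was Fbn1, which encodes the microfibril protein fibrillin-1. It was at 75.4 and 63.0 CPM on stiff and 44.2 and 48.7 on soft in WT cells, and at 36.4 and 25.4 on stiff and 77.8 and 74.2 on soft in Cav1KO cells. It was higher on stiff in WT cells (0.56 ± 0.16, adjusted p = 0.0181) and lower on stiff in Cav1KO cells (-1.29 ± 0.16, adjusted p = 0.000222).

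Of the 7 listed genes of degradation, 6 fell on stiff in WT cells and 5 in Cav1KO cells, and all 7 were higher in Cav1KO cells on soft. Calls of these kinds covered 26.3%, 28.2% and 24.1% of all genes, in that order. The collagenase gene Mmp13 was at 0 and 0.114 CPM on stiff and 3.87 and 2.31 on soft in WT cells, and at 4.53 and 3.23 on stiff and 32.2 and 32.5 on soft in Cav1KO cells, with 2 reads in all in WT stiff. Mmp14, the membrane-bound collagenase, was at 79.9 and 59.9 CPM on stiff and 118 and 118 on soft in WT cells, and at 54.8 and 43.2 on stiff and 264 and 259 on soft in Cav1KO cells, and Cav1KO soft stood highest. Ctsl, which encodes the lysosomal proteinase cathepsin L, was at 362 and 399 CPM on stiff and 1099 and 914 on soft in WT cells, and at 1239.6 and 1304 on stiff and 1427 and 1549.7 on soft in Cav1KO cells, lowest in WT stiff and higher in Cav1KO cells on stiff (1.74 ± 0.10, adjusted p = 3.16e-06). The gelatinase gene Mmp9 was at most 4.65 CPM in all groups but Cav1KO soft, where it was at 24.3 and 23.2 CPM.

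Among the genes of processing, Adamts3, an N-proteinase of procollagen like Adamts2, was at 5.98 and 5.47 CPM on stiff and 13.3 and 17.0 on soft in WT cells, and at 0.118 and 0 on stiff and 0 and 0 on soft in Cav1KO cells. Cav1KO stiff held 2 reads and Cav1KO soft 0, so that WT soft was at least 196-fold higher against 3 reads over the group. Tgm2, a transglutaminase that cross-links matrix proteins, was at 38.0 and 45.7 CPM on stiff and 219 and 145 on soft in WT cells, and at 30.1 and 23.2 on stiff and 126 and 125 on soft in Cav1KO cells and fell on stiff in both genotypes (-2.07 and -2.21). Of the 12 genes of the secretory route, 5 fell and 3 rose on stiff in Cav1KO cells, where 28.2% and 27.9% of all genes did. The 3 rises were near that share. Tmed2 and Sec13, parts of the coated vesicles that leave the endoplasmic reticulum, were among those that rose (0.71 ± 0.11, adjusted p = 0.000918 and 0.67 ± 0.08, adjusted p = 0.000256). Those that fell, named after their values were seen, were the coat genes Sec24d (-0.68), Sec31a (-0.68) and Sec23a (-0.38), the cargo receptor gene Mia3 (-1.26) and the transcription factor gene Creb3l2 (-1.25). Creb3l1, a transcription factor that drives collagen secretion genes, was lower in Cav1KO cells on stiff (-1.09 ± 0.11, adjusted p = 8.78e-05) and on soft (-0.87 ± 0.11, adjusted p = 0.000293), while its relative Creb3l2 was higher on soft (0.72 ± 0.10, adjusted p = 0.000514). The collagen receptor subunit Itga11 was lower in Cav1KO cells on stiff (-1.30 ± 0.22, adjusted p = 0.00149), and Furin, which activates Bmp1, rose on stiff in WT cells (0.37 ± 0.13, adjusted p = 0.0391).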

How the data were processed

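RNA of 8 MEF libraries was sequenced after poly(A) selection as single reads of 60 nt, with a kit that does not mark strand. Per the labels, the submitters' processing notes name CASAVA 1.8.2, cutadapt, RSEM 1.2.3 and build GRCm38. The deposited signal is a read count per gene that the authors scaled to CPM with TMM factors. Its steps gave whole reads (within 0.1 read) for all values, so depth was recovered at 17089836 to 19944952 reads a library.

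The members and the gene lists were chosen with earlier results of these data known. Genes at 1 CPM or more in at least 2 libraries (12494) entered a limma 3.58.1 model (R 4.3.3) of log2(CPM + 1), a scale that understates changes of low genes, with a mean-variance trend and all 4 groups in 1 fit (4 residual degrees of freedom). Each of 5 contrasts was tested two-sided with a threshold of 0.05 on p-values after Benjamini-Hochberg correction across every gene tested. The fits were tested on simulated data first. Alternatives were other pseudocounts, filters, scalings and fits, edgeR 4.0.16 and DESeq2 1.42.0 on the recovered reads, each library left out, and, added after the data were seen, a correction for transcript length and GC content (11656 genes with both, GENCODE M21). With 2 libraries a group, an exact permutation test cannot go below p = 0.333. Replicates differed by more than sampling noise (chi-square per degree of freedom 3.44 to 17.4). Members were described by role. The values in every library are given for the 5 most abundant members of each role and for the 3 largest rises and falls of each contrast. They are given also for Col5a3 and Col11a1, outside this rule. Of the other pathway genes, the 2 largest of each direction at a mean of at least 5 CPM were named. Intervals and floors (3 reads) cover counting error only. Upstream bases were taken from RefSeq, and other fibrillar chains (Col11a2, Col24a1 and Col27a1) were not analysed here.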

Additional observations from a re-analysis of the deposited data

Results flagged for a closer look

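For 19 members the effect of stiffness differed between WT and Cav1KO cells by the test of that difference (limma, adjusted p under 0.05), which is what marked them for a closer look. As WT minus Cav1KO log2 fold changes, the fibrillar chains stood at 1.86 for Col1a1, 1.60 for Col5a1, 1.46 for Col11a1, 1.05 for Col1a2 and 1.02 for Col5a3. The beaded chains stood at 1.56 for Col6a3, 1.40 for Col6a2 and 1.04 for Col6a1. Of the other chains, Col7a1 was at 1.22, Col16a1 at 1.21 and Col4a5 at 1.08. Of the enzymes, Bmp1 was at 0.99, Adamts2 at 0.89, Loxl1 at 0.68 and Lox at 0.48. Among 19 alternative settings, the call was lost in 11 for Adamts2, 9 for Lox, 5 for Bmp1 and 4 for Loxl1. Of the chains, it was lost in 7 for Col7a1, 7 for Col16a1, 6 for Col5a1 and 5 for Col4a5. For Col6a1 it was lost in 4, for Col1a2 in 3 and for Col6a2 in 2. It was lost in 0 for Col1a1 and Col6a3, and Col11a1 and Col5a3 are left out of these counts.

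The 4 members with a difference below 0 were Col14a1 at -2.17, Col4a6 at -1.65, Col15a1 at -1.36 and P4ha2 at -0.46. Col4a6 held 1 read in each Cav1KO group and Col15a1 at most 6 reads in any Cav1KO library. The call was lost in 7 of 19 alternative settings for P4ha2 and 6 of 19 for Col4a6. It was lost in 4 of 17 for Col15a1 and 0 of 18 for Col14a1.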

How the results depend on the processing

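Depth limits the chains near 0 in Cav1KO cells (Col4a1, Col4a2, Col4a6, Col2a1 and Col15a1), whose fitted values move with the pseudocount. Of the counts of members called, recomputed under every alternative, 182 values stayed within 1.5 times the reported count and 26 did not. With the length and GC correction, 2 members rose on stiff in WT cells and 5 in Cav1KO cells, and 5 were higher in Cav1KO cells on stiff. The same calls were made for 3666, 3971 and 3412 of 11656 genes. Quantile normalization gave 2 rises in WT cells, and 3209 of 12494 genes. With a fold of at least 2 required, 10 members fell in WT cells, where 836 genes did, and 15 fell and 0 rose in Cav1KO cells, where 1048 and 425 did. At that fold 1 was higher and 16 were lower in Cav1KO cells on stiff, where 830 and 883 genes were. On soft 3 were higher, where 995 genes were. Of differences between the stiffness effects below 0, edgeR called 2 (541 of 12494 genes) and DESeq2 1 (719 of 10556 genes). Leaving out 1 library in turn moved the counts of members called and those over all genes. In these fits the median stiff minus soft value over members ran from -0.49 to -0.40 in WT cells, against -0.02 over all genes. In Cav1KO cells it ran from -0.85 to -0.74, against -0.03 to -0.01. Cav1KO minus WT on stiff ran from -0.89 to -0.55, against -0.03 to -0.01. The difference between the stiffness effects ran from 0.27 to 0.51, against -0.08 to -0.05. The Cav1KO stiffness value of Col15a1, which was not called, turned to 0.44 (adjusted p = 0.0479) with the length and GC correction. The cause of these changes was not tested.

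The correlation of deviations of same-numbered libraries ran from -0.37 (WT stiff with WT soft) to 0.42 (WT stiff with Cav1KO stiff). Its sign was not the same for all pairs of groups, and a pairing within the stiff substrate was not tested. With the replicate block, 1 member rose and 25 fell in WT cells, where 2767 and 3213 of 12494 genes did. In Cav1KO cells 1 rose and 29 fell, where 3460 and 3512 genes did. The stiffness effects differed in 15 members above 0 and 4 below, where they did in 569 and 755 genes. Cav1KO cells were higher in 3 members and lower in 30 on stiff, and in 3117 and 3328 of all genes. On soft they were higher in 7 members and lower in 19, and in 3019 and 3743 of all genes.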
